A study of Mus musculus with 22 samples.

Results

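Potassium channel genes were followed in hippocampus, cortex and cerebellum of wild-type (WT) and circTulp4-deficient (CD) mice. The members were all genes whose mouse symbol starts with Kcn, apart from Kcnq1ot1, an antisense RNA of the Kcnq1 locus. The rule used names alone and no measured value. It found 91 genes among the 23033 genes of the table, of which 88 were protein-coding and 3 were noncoding (Kcnd3os, Kcnmb4os1 and Kcnmb4os2). The Kcn genes Kcna3, Kcna7, Kcnj1, Kcnj15, Kcnk16 and Kcnk18 were not analysed here.

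CircTulp4 is a circular RNA made from the Tulp4 gene. CD mice carry a CRISPR-edited splice acceptor in which AG became TC, and they descend from a single mosaic founder kept on C57BL/6. The edit lowers circTulp4 without abolishing it, because a cryptic acceptor remains in use, and WT mice carry the unedited Tulp4. There were 22 CelSeq2 libraries (3′ RNA-seq) from 8 mice, 4 WT (m162, m164, m240 and m244) and 4 CD (m118, m138, m190 and m242), with 3 WT and 4 CD hippocampi, 4 WT and 4 CD cortices, and 4 WT and 3 CD cerebella. Age and sex of these mice are not given in the sources used here. Each region was a whole dissected tissue, so fewer cells of a type and less RNA per cell cannot be told apart in any value below.

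Potassium channels let K+ leave cells and so repolarise neurons and set their resting potential. Voltage-gated (Kv) channels open on depolarisation, inward rectifiers (Kir) and two-pore-domain (K2P) channels hold the resting potential, and the calcium- and sodium-activated channels link ion entry to firing. Many subunits form a pore on their own, while others, such as the silent Kv subunits, the Kv beta subunits, KChIPs and KCNE proteins, act only in complexes with them. Brain regions are known for their own sets. Kv3 channels serve fast spiking in Purkinje cells and interneurons, and Kv7 channels carry the M current of forebrain principal neurons.

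What pore-forming members share is the selectivity filter, the stretch of the pore that holds K+ ions in file. A search of the longest complete coding sequence of each gene (GENCODE M21, GRCm38) found codons of the filter signature in 71 of the 88 coding members, and in 2.65% of the 21571 genes with such a sequence. The members without it were the Kv beta, KChIP, KCNE and BK beta subunits and Kcnrg, a regulator of Kv assembly. In the K2P family 9 of 12 members held the signature at 2 places. The windows below are of Kcnt2 and Kcnt1 and of Kcnv1 and Kcng4, shown because each pair joins a member that was higher in the forebrain with a relative that was higher in the cerebellum. Capitals mark the 15 bases of the signature codons, each window has 45 coding bases within a single exon, and each is written 5′ to 3′ on the coding strand.
Kcnt2, chr1:140425263-140425307, plus strand: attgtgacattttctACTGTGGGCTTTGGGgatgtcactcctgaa
Kcnt1, chr2:25894352-25894396, plus strand: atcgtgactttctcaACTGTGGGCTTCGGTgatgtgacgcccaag
Kcnv1, chr15:45109274-45109318, minus strand: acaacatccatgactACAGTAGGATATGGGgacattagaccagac
Kcng4, chr8:119625895-119625939, minus strand: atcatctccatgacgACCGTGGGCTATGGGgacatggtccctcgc

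Kcnt2 and Kcnt1 had 34 of 45 bases in common and 13 of the 15 bases of the signature. Kcnv1 and Kcng4, silent subunits of different subfamilies, shared 30 bases of the window and 12 of the signature. First matches of the 71 members used 60 different strings of 15 bases.

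Upstream of their start sites these genes differed widely in composition. RefSeq (GRCm38.p6) windows were matched for 65 members, with 90 starts, and the 200 bases before each start were read. The number of CG dinucleotides ran from 0 to 36 with a median of 7, against a median of 5 in the windows of all genes. All windows came from 27025 genes and were not limited to protein-coding ones, as most members are, so the 2 sets differ in kind. The letters GGGCGG, read on both strands, were in 46.7% of members' windows and 31.0% of all 32851 windows. TATAAA was in 3.33% against 9.96%, TGACGTCA in 0 of 90 against 1.47%, and CANNTG in 54.4% against 58.2%. The windows of Kcnj4, Kcnj12 and Kcng4 are printed because these members each had a single matched start and lay far apart between regions. The annotated genes Kcnj4 and Kcnj12 reach further upstream, to positions 79512511 and 61022564, and no window was matched there. Capitals mark CG, of which there were 31, 4 and 3.
Kcnj4, chr15:79505242-79505441, minus strand: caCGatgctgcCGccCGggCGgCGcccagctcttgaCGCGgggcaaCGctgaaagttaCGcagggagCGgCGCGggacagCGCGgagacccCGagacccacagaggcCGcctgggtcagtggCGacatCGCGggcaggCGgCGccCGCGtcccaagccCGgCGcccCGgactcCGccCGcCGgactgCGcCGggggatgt
Kcnj12, chr11:61065604-61065803, plus strand: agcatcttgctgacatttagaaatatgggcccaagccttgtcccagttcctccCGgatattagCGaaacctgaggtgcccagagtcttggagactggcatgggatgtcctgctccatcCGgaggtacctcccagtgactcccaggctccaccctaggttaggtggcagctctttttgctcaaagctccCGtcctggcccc
Kcng4, chr8:119635681-119635880, minus strand: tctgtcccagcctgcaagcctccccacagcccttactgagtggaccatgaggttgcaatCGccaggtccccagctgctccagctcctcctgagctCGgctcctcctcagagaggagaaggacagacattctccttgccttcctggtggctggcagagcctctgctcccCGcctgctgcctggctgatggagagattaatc

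Library totals were 2757684 to 8847478 counts after 1 transcript per gene was kept, so that 5 cpm (counts scaled to a common library size) stood for 13.8 to 44.2 counts. Marker genes matched the labelled regions. Summed hippocampal markers were 2070 to 2923 cpm in hippocampi and at most 509 cpm elsewhere, cortical markers were 677 to 868 cpm in cortices and at most 159 cpm elsewhere, and Purkinje markers were 5500 to 6398 cpm in cerebella and at most 647 cpm elsewhere. In the library labelled CD hippocampus of mouse m118, the excess of Tulp4 transcripts starting in the circTulp4 exon was 3.98 cpm. This lay just above the WT hippocampi (2.71 to 3.69 cpm) and above the other CD hippocampi (0.42 to 0.57 cpm). The values rest on few counts, 16 in this library, 17 to 24 in WT and 3 to 5 in the other CD hippocampi. In cortex this mouse had 0.90 cpm (WT 1.45 to 6.025, other CD 0.141 to 1.295). In cerebellum it had 1.56 cpm (WT 3.125 to 13.7, other CD 0.60 and 2.615). Genotype calls in hippocampus are also counted without the hippocampal library, and other values include it unless stated.

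Members were spread over most of the range of the assay. In 64 of the 91 members at least 5 cpm was reached in at least 2 of the 22 libraries, and 42 of them did so within each region, 13 in 2 regions and 9 in a single region. The 27 members left out had 1 to 349 counts in all 22 libraries together, and 9 of them never passed 3 counts in a library. Among them Kcnn3, a small-conductance calcium-activated channel, ran from 0.612 to 8.06 cpm, and the silent subunit Kcnv2, known from photoreceptors, never passed 1.66 cpm. A gene that passed through a single region was kept for its level there, which favours a difference. The counts below therefore describe the tested members and are set beside the share over all 11133 genes tested.

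Cerebellum was far from both forebrain regions, and hippocampus and cortex were closer to each other. At a false discovery rate (FDR) below 0.01 and a change of more than 2-fold, 38 of 64 members passed between cortex and cerebellum, against 22.6% of all genes tested. For regions, passing a threshold means here and below that both conditions were met. A member that passed no threshold can still differ by less than 2-fold at an FDR below 0.01. Of these 24 were higher in cortex (12.9% of all genes) and 14 in cerebellum (9.70%). Between hippocampus and cerebellum 38 members passed as well (22.8%), 25 higher in hippocampus (13.0%) and 13 in cerebellum (9.77%). Between hippocampus and cortex 19 members passed (8.42%), 3 higher in hippocampus (4.03%) and 16 in cortex (4.38%). The count of 3 fell to 1 in WT libraries alone. These comparisons share libraries and are not independent of each other.

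Sizes of change are given on the log2 scale, first region minus second, with the standard error of the fit. The median absolute difference of the tested members was 1.43 between cortex and cerebellum (0.43 over all genes), 1.87 between hippocampus and cerebellum (0.43) and 0.57 between hippocampus and cortex (0.23). When only genes with 5 cpm in 2 libraries of every region were kept, a filter chosen after the data were examined, 42 members remained. Of these 19 passed between cortex and cerebellum, 19 between hippocampus and cerebellum and 7 between hippocampus and cortex, that is 45.2%, 45.2% and 16.7% against 15.6%, 15.6% and 4.87% of all genes.

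**Figure D1:**
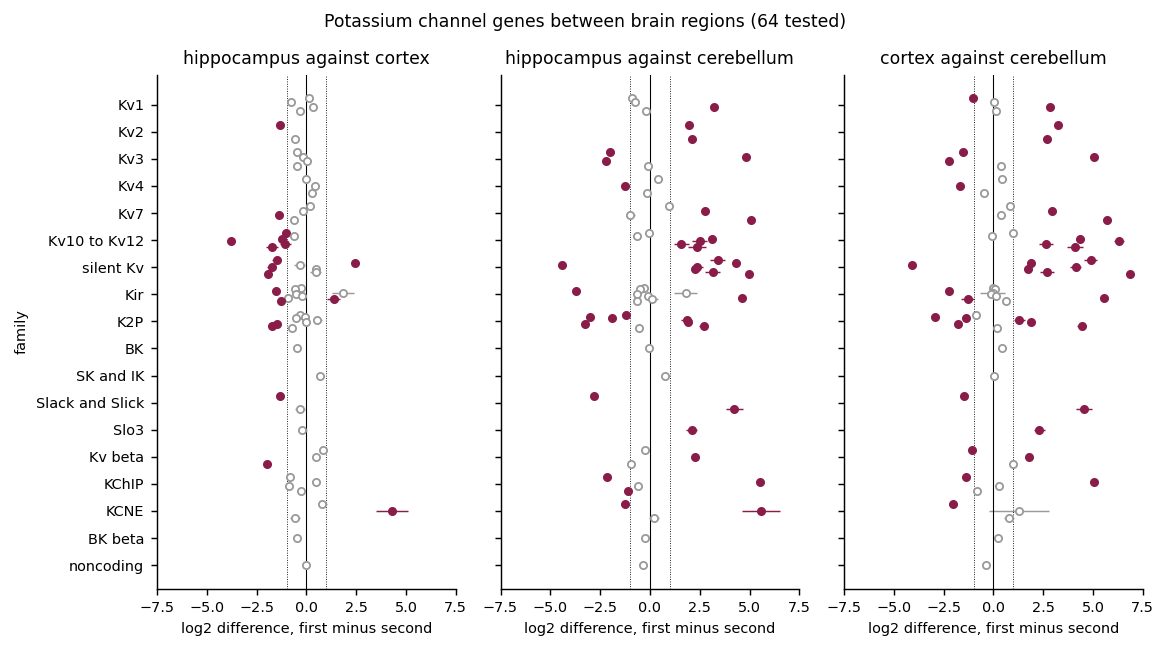
Log2 differences between regions (x axis, first region minus second) of the 64 tested members, by family (y axis), with bars for the standard error. Filled points passed an FDR below 0.01 and a 2-fold change (dotted lines). Silent Kv and Kv10 to Kv12 members lay mostly to the right against cerebellum, and Kir and K2P members on both sides.

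In 15 members the libraries of the 3 regions did not overlap at all (5.16% of all genes). In 8 of them the order was cortex, hippocampus, cerebellum, as for Kcnh3, Kcnh4, Kcnj4, Kcnk4, Kcnq5, Kcns1 and Kcnv1. Another 4 ran from cerebellum over cortex to hippocampus (Kcnip1, Kcnj12, Kcnk3 and Kcnt1). Kcng2 and Kcns2 were highest in hippocampus and lowest in cerebellum, and Kcnab3 was highest in cortex and lowest in hippocampus.

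The Kv1 family holds the low-threshold channels of axons. Kcna1 ran at 582 to 918 cpm in cerebellum, with a median of 642, and at 294 to 389 cpm in cortex, with a median of 335. It was higher in cerebellum by a small margin over the fold threshold (−1.02 ± 0.09, edgeR FDR 8.02e-10, cortex minus cerebellum). Kcna4, the A-type member, went the other way, at 47.6 to 65.9 cpm in cortex and 4.28 to 12.9 cpm in cerebellum (2.86 ± 0.17). Kcna2 and Kcna6 stayed under a 2-fold change in every pair of regions. For Kcna2, hippocampus minus cortex gave −0.76 ± 0.16 (edgeR FDR 4.2e-04). Kcna1, Kcna5 and Kcna6 lie together on chromosome 6, with gaps of 101 kb between Kcna5 and Kcna1 and 62.5 kb between Kcna1 and Kcna6, yet Kcna5 never passed 1.49 cpm.

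Kv beta subunits dock on the cytoplasmic face of Kv1 channels. Kcnab2 had medians of 709 cpm in hippocampus, 508 in cortex and 160 in cerebellum, and its libraries of hippocampus and cerebellum lay apart (2.28 ± 0.11). Kcnab1 was lowest in cortex, at 26.9 to 42.4 cpm against 61.6 to 87.8 cpm in cerebellum (−1.06 ± 0.11, cortex minus cerebellum), and its hippocampal libraries, at 50.3 to 71.2 cpm, overlapped the cerebellar ones. Kcnab3 was at 9.75 to 12.3 cpm in hippocampus and at 24.0 to 60.6 cpm in cortex (−1.95 ± 0.16, hippocampus minus cortex). Kcnab2 shares its locus with Nphp4, and strand use in the counting is not given in the sources used here.

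Kv2 channels are delayed rectifiers of neuronal cell bodies. Kcnb2 had medians of 225, 352 and 48.3 cpm in hippocampus, cortex and cerebellum. It was lower in cerebellum than in cortex, where the difference was 2.67 ± 0.18, and than in hippocampus (2.12 ± 0.18).

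Silent Kv subunits cannot form a channel alone and change the gating of Kv2. Of the 10 members of this group 7 were tested, and each of the 7 passed between cortex and cerebellum as well as between hippocampus and cerebellum (22.6% and 22.8% of all genes). The count is a description, since the filter on low values favours a difference. Kcnf1, Kcng4 and Kcns3 passed this filter only through the region where they were high. Kcng2 and Kcnv1 passed it in hippocampus and cortex but not in cerebellum, and only Kcns1 and Kcns2 passed it in each region. Kcnv1 had the largest difference of any member. Its cortical libraries were at 76.8, 83.6, 89.9, 91.5, 93.7, 94.5, 97.5 and 104 cpm, its hippocampal libraries were at 21.7 to 28.9 cpm, and no cerebellar library exceeded 1.10 cpm. Cortex exceeded cerebellum by 6.86 ± 0.14 (FDR 1.50e-22) and hippocampus by 1.91 ± 0.09. Kcns1 followed the same order, with medians of 65.5, 16.9 and 3.35 cpm in cortex, hippocampus and cerebellum.

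Kcng2 and Kcng4, silent subunits of the same subfamily, were high in different regions. Kcng2 was at 34.2 to 42.6 cpm in hippocampus, 5.39 to 8.81 cpm in cortex and 1.02 to 2.48 cpm in cerebellum, so hippocampus exceeded cortex by 2.45 ± 0.11 and cerebellum by 4.34 ± 0.14. Kcng4 was at 34.6, 36.1, 42.0 and 43.8 cpm in WT cerebella and at 48.8, 50.8 and 53.0 cpm in CD cerebella. Its highest value in any hippocampus or cortex was 5.37 cpm. The difference was −4.08 ± 0.20 for cortex minus cerebellum and −4.42 ± 0.21 for hippocampus minus cerebellum. Kcns2 and Kcns3 were lowest in cerebellum, with medians of 9.58 and 0.408 cpm there.

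Kcnf1, another silent subunit, was close to the floor in cerebellum, with 1 to 4 counts in a library and 12 counts in all. Against the 410 counts of the cortices, per library total, this was a ratio of 27.9 with an exact 95% interval of 15.8 to 54.5 that covers counting error only. In cortex it was at 3.17 to 12 cpm and in hippocampus at 1.90 to 5.23 cpm, and these ranges overlapped.

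Kv3 channels open and close fast and allow high firing rates. Kcnc1 was at 128 to 166 cpm in cerebellum and at 25.5 to 59.6 cpm elsewhere (−1.55 ± 0.11 for cortex and −2.0 ± 0.12 for hippocampus, minus cerebellum). Kcnc2, best known from parvalbumin interneurons, was at 170 to 243 cpm in cortex, 145 to 214 cpm in hippocampus and 3.47 to 10.6 cpm in cerebellum (5.03 ± 0.16, cortex minus cerebellum). Summed interneuron markers were 4206 to 6652 cpm in cortices, 3896 to 5940 cpm in hippocampi and 1652 to 1972 cpm in cerebella. Of the 4 genes summed, Sst was higher in cortex than in cerebellum (5.21 ± 0.17), Pvalb was higher in cerebellum (−3.14 ± 0.13), and Gad1 and Gad2 passed no threshold (−0.56 ± 0.11 and −0.13 ± 0.12). Their part in the result was not tested. Kcnc4 stayed under a 2-fold change, with medians of 270, 388 and 276 cpm in hippocampus, cortex and cerebellum. Hippocampus minus cortex gave −0.48 ± 0.11 (edgeR FDR 0.0012).

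Kv4 channels carry the dendritic A current, and their KChIP and DPP partners set its speed. Kcnd2 was higher in cerebellum, at 71.9 to 104 cpm against 21.5 to 33.9 cpm in cortex (−1.69 ± 0.11). Kcnd1 and Kcnd3 passed no threshold. Among the KChIPs, Kcnip2 was at 316 to 627 cpm in the 15 forebrain libraries and at 8.92 to 17.2 cpm in cerebellum, which gave 5.50 ± 0.16 for hippocampus and 5.04 ± 0.16 for cortex. Kcnip1 was the reverse, at 334 to 435 cpm in cerebellum, 126 to 173 cpm in cortex and 74.5 to 107 cpm in hippocampus (−1.36 ± 0.08 and −2.16 ± 0.08 against cerebellum). Kcnip4 was at 147 to 215 cpm in cerebellum and 62.4 to 99.0 cpm in hippocampus (−1.10 ± 0.10). Kcnip3 stayed under a 2-fold change (−0.88 ± 0.10, edgeR FDR 5.8e-08, hippocampus minus cortex). Kcnip1 overlaps Kcnmb1 on the opposite strand, where Kcnmb1 never passed 1.88 cpm.

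**Figure D2:**
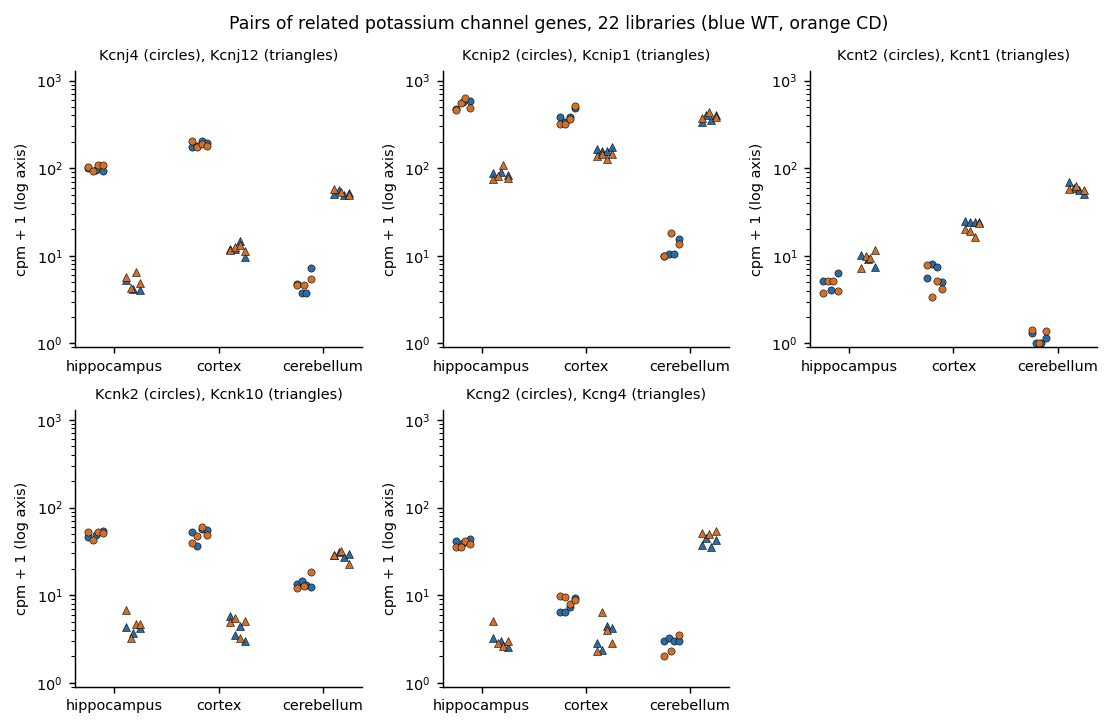
Level (y axis, cpm + 1 on a log axis) of 5 pairs of related members in each of the 22 libraries, by region (x axis), with WT in blue and CD in orange. In each panel the gene drawn as circles was lowest in cerebellum and the gene drawn as triangles was highest there.

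Kv7 channels stay open near rest and restrain repetitive firing. Kcnq5 was at 64.9 to 80.4 cpm in cortex, 42.6 to 55.1 cpm in hippocampus and 1.10 to 2.19 cpm in cerebellum. The regions did not overlap, and cortex exceeded cerebellum by 5.68 ± 0.11 (FDR 1.50e-22). Kcnq3 had medians of 87.3, 75.9 and 11.4 cpm in the same order (2.93 ± 0.14).

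The Kv10 to Kv12 family (ether-à-go-go channels) had 6 of 8 members tested, and 5 of the 6 were higher in cortex than in hippocampus (4.38% of all genes). Kcnh4 and Kcnh6 passed the filter on low values only through cortex, which favours a difference, and Kcnh7 did not pass in WT libraries alone (FDR 0.0166). The widest difference was that of Kcnh4. It was at 20.2, 30.7, 32.5, 35.2, 36, 37.7, 45.6 and 55.1 cpm in cortex and at 1.88 to 4.78 cpm in hippocampus (−3.81 ± 0.20, FDR 9.50e-14). Cerebellar libraries held 0 to 6 counts of it, 20 in all, which set against 1567 in cortex gave a ratio of 64 with an interval of 41.3 to 105. Kcnh3 was at 53.1 to 77.9, 24.5 to 39.5 and 2.24 to 5.14 cpm in cortex, hippocampus and cerebellum (4.36 ± 0.15, cortex minus cerebellum), and it shares its locus with Mcrs1. Kcnh7 and Kcnh6 were also lowest in cerebellum, while Kcnh1 was near the fold threshold (−1.01 ± 0.17, hippocampus minus cortex).

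Of 9 inward rectifiers tested, 1 was higher in cortex than cerebellum (12.9% of all genes) and 2 were lower (9.70%). The other 6 did not pass. A pair within a subfamily had opposite patterns. Kcnj4 and Kcnj12 encode strong rectifiers of the Kir2 group, and the windows upstream of their matched starts are printed above. Kcnj4 was at 173 to 204 cpm in cortex, 91.0 to 108 cpm in hippocampus and 2.78 to 6.25 cpm in cerebellum (5.55 ± 0.12, cortex minus cerebellum). Kcnj12 was at 48.4 to 57.1 cpm in cerebellum, 8.72 to 13.7 cpm in cortex and 3.08 to 5.58 cpm in hippocampus (−2.21 ± 0.10 and −3.73 ± 0.12 against cerebellum). No region overlapped another in either gene.

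Among the G protein-gated rectifiers, Kcnj3 was even, with medians of 58.0, 65.4 and 63.8 cpm in hippocampus, cortex and cerebellum. Kcnj9 was at 22.4 to 37.5 cpm in cortex and 9.41 to 14.9 cpm in hippocampus (−1.28 ± 0.13). Its neighbour Kcnj10, 11.9 kb away on the opposite strand of chromosome 1, passed no threshold. Kcnj6 was low. It was at 3.45, 3.47, 3.82, 5.54, 6.32, 9.41 and 11.8 cpm in hippocampus and at 0.523 to 4.36 cpm in cortex, with overlapping ranges (1.38 ± 0.33, FDR 0.00155). The highest hippocampal value came from mouse m118. Its transcripts did not move together: the kept transcript, with 606 counts in all, gave −1.07 for cortex minus cerebellum in the ratio of cpm, and another with 595 counts gave 1.25. Of the 38 members past the thresholds between cortex and cerebellum 29 had another distinct transcript, and Kcnj6 was the only member of these with a transcript in the opposite direction.

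Kcnj10 and Kcnj16, the Kir4.1 and Kir5.1 subunits of astrocytes, had medians of 142, 175 and 178 cpm and of 8.08, 11.7 and 13.2 cpm in hippocampus, cortex and cerebellum. Neither passed a threshold. Summed astrocyte markers were 1065 to 1337 cpm in hippocampi, 480 to 728 cpm in cortices and 813 to 1195 cpm in cerebella. The 5 genes summed had no common order. Between hippocampus and cerebellum Gfap was higher in hippocampus (2.00 ± 0.14) and Aqp4 in cerebellum (−1.01 ± 0.09), while Gja1, Slc1a3 and Aldh1l1 did not pass the 2-fold threshold (0.70 ± 0.17, −0.59 ± 0.15 and −0.44 ± 0.12). Their part in the levels of Kcnj10 and Kcnj16 was not tested. Kcnj8, a subunit of vascular KATP channels, had 0.65 to 2.87 cpm and was not tested. Kcnj11, its neuronal relative, stayed under a 2-fold change (−0.58 ± 0.10, edgeR FDR 3.2e-05, hippocampus minus cortex).

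K2P channels pass the background K+ leak. Of 8 tested members 3 were higher in cortex than cerebellum (12.9% of all genes) and 3 were lower (9.70%). These counts are a description. Kcnk10 and Kcnk12 passed the filter on low values only through cerebellum, and Kcnk4 and Kcnk13 did not pass it there. Kcnk3 (TASK-1), an acid-sensitive leak channel, was at 486 to 784 cpm in cerebellum, 149 to 212 cpm in cortex and 57.1 to 93.0 cpm in hippocampus (−1.78 ± 0.10 and −3.24 ± 0.11 against cerebellum, −1.46 ± 0.10 between hippocampus and cortex). Kcnk1 was higher in cerebellum than in hippocampus (−1.22 ± 0.09). Kcnk9 (TASK-3), close kin of Kcnk3, passed no threshold.

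The mechanosensitive K2P channels did not share a region. Kcnk4 (TRAAK) was at 46.8 to 82.4 cpm in cortex, 10.7 to 24.8 cpm in hippocampus and 1.66 to 5.92 cpm in cerebellum (4.43 ± 0.22, cortex minus cerebellum). Kcnk2 (TREK-1) was even between cortex and hippocampus, with medians of 49.8 and 50.3 cpm, and at 11.2 to 17.3 cpm in cerebellum. Kcnk10 (TREK-2) was at 21.5 to 30.6 cpm in cerebellum and never passed 5.79 cpm elsewhere (−2.93 ± 0.17 and −3.02 ± 0.18). Kcnk13, a microglial channel, had medians of 8.21, 5.44 and 1.86 cpm in hippocampus, cortex and cerebellum (1.84 ± 0.26, hippocampus minus cerebellum). Summed microglial markers were 161 to 187, 140 to 187 and 43.0 to 63.5 cpm in the same order, and their part in the result was not tested.

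Among channels gated by internal ions, the sodium-activated pair was split. Kcnt1 (Slack) was at 49.6 to 69.3 cpm in cerebellum, 15.5 to 23.9 cpm in cortex and 6.29 to 10.6 cpm in hippocampus (−1.46 ± 0.10 and −2.79 ± 0.11). Kcnt2 (Slick) was at 2.38 to 7.09 cpm in cortex and had 0 to 3 counts in each cerebellar library. The 8 cerebellar counts against 204 in cortex gave a ratio of 20.8 with an interval of 10.4 to 48.9. The calcium-activated BK channel Kcnma1 had medians of 55.8, 82.7 and 55.8 cpm. It, its brain beta subunit Kcnmb4 and the small-conductance channel Kcnn2 stayed under a 2-fold change in every pair of regions. Hippocampus minus cortex gave −0.48 ± 0.11, −0.47 ± 0.09 and 0.70 ± 0.11 (edgeR FDR 0.0017, 1.1e-04 and 1.5e-05). Kcnu1 (Slo3), a channel known from sperm, had 3.69 to 8.72 cpm in the forebrain libraries and 0.367 to 2.42 cpm in cerebellum (2.30 ± 0.27, cortex minus cerebellum).

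KCNE proteins are small single-span subunits. Kcne1l, now called Kcne5, was at 9.38 to 20.3 cpm in cerebellum and 2.06 to 5.58 cpm in cortex (−2.03 ± 0.22). Kcne2 varied more between the hippocampal libraries than any other member of the family. The hippocampi had 37.8 cpm (WT m244), 18.8 cpm (CD m190), 9.03 cpm (CD m138), 2.40 cpm (CD m242), 1.19 cpm (WT m240), 1.01 cpm (CD m118) and 0.865 cpm (WT m162). Cortices had 0 to 7 counts and cerebella 0 to 3. The pooled ratio was 20.6 (13.4 to 33.2) against cortex and 37.0 (19.9 to 77.7) against cerebellum, intervals that leave out the spread between libraries. The fit gave 4.28 ± 0.80 and 5.57 ± 0.97, and without the library of WT m244 it gave 2.47 and 3.76.

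Kcnj13 (Kir7.1), an inward rectifier of transporting epithelia, was highest in the same libraries, at 94.9, 60.2 and 22.9 cpm in WT m244, CD m190 and CD m138. The other hippocampi had 2.27 to 6.64 cpm, and cortices and cerebella had 3.73 to 13.4 cpm. It overlaps Gigyf2, and reads of the pair cannot be told apart without strand. Hippocampal Kcnj13 exceeded 2-fold but missed the FDR of 0.01 against cortex (1.83 ± 0.57, edgeR FDR 0.0135) and cerebellum (1.79 ± 0.59, edgeR FDR 0.0114). All 4 markers of choroid plexus, the epithelium that makes cerebrospinal fluid, were detected in each hippocampus, and their sum was 8212, 4142 and 1198 cpm in those 3 libraries, 127 to 549 cpm in the other hippocampi and 38.0 to 114 cpm in the other regions. Ttr made up most of the sum, at 120 to 8108 cpm in hippocampi. Between hippocampus and cerebellum Ttr and Folr1 were higher in hippocampus (5.45 ± 0.79 and 6.22 ± 0.88), while Clic6 did not pass (0.87 ± 0.44). Their part in the levels of Kcne2 and Kcnj13 was not tested. Without the libraries of mice m244, m190 and m118, left out together after the data were examined, Kcne2 no longer reached 5 cpm in 2 libraries.

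**Figure D3:**
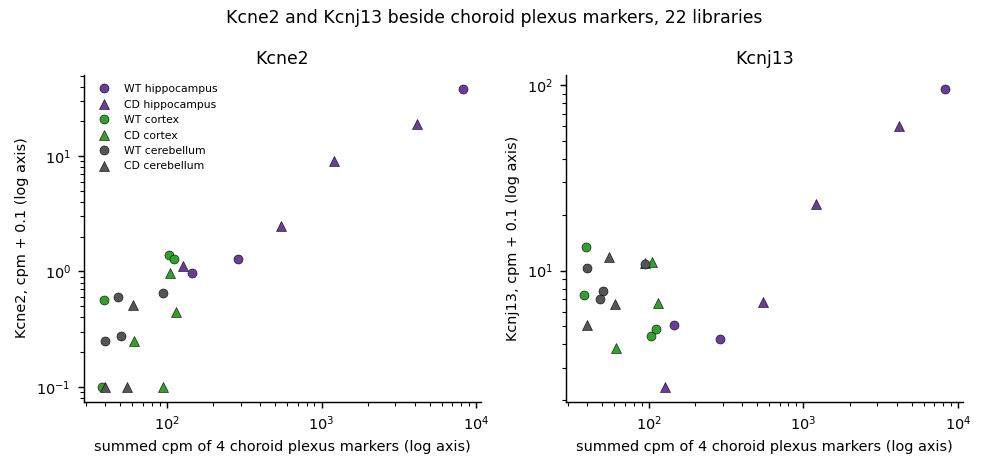
Kcne2 and Kcnj13 (y axes, cpm + 0.1 on a log axis) against the summed cpm of 4 choroid plexus markers (x axis, log) in the 22 libraries. The 3 hippocampal libraries with the highest marker sums, 1198 to 8212 cpm, were also the 3 highest for each gene.

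Of the noncoding members only Kcnmb4os2 was tested. It was at 4.88 to 12.3 cpm and passed no threshold, and it overlaps Kcnmb4, so reads of the pair cannot be told apart without strand.

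Proteins that assemble with these channels were listed as partners. From a list of 17 partners 16 were in the table and 14 were tested. Between cortex and cerebellum 1 was higher in cortex and 2 in cerebellum, a share near the 22.6% of all genes that passed. Dpp6, which speeds Kv4 channels, was at 700 to 991 cpm in cerebellum and 261 to 354 cpm in cortex (−1.47 ± 0.08), as Kcnd2 was. Cntn2, an axonal adhesion molecule that clusters Kv1, was at 561 to 632 cpm in cerebellum and 224 to 305 cpm in cortex (−1.20 ± 0.08). Lrrc55, an auxiliary subunit of BK, was higher in cortex (2.96 ± 0.23). Between hippocampus and cerebellum Lrrc55 was higher in hippocampus (13.0% of all genes). Dpp6, Dpp10, Cntn2 and Abcc8, the sulfonylurea receptor of neuronal KATP channels, were higher in cerebellum (9.77% of all genes). Dpp10 was lower in hippocampus, with a median of 30.8 cpm, than in cortex, with a median of 151 cpm (−2.36 ± 0.11). The partners of Kv2 and Kv7 that were listed, Amigo1, Vapa, Vapb and Ank3, passed no threshold.

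Between genotypes no member passed the thresholds in any region. The same held for all genes tested, with 0 of 9960 in hippocampus, 0 of 9924 in cortex and 0 of 10137 in cerebellum. In hippocampus 54 members were tested, and edgeR's quasi-likelihood test called 0 at an FDR below 0.01, with 2 at an unadjusted p below 0.05 (4.22% of all genes). In cortex it was 0 of 58, with 3 at an unadjusted p below 0.05 (3.32%), and in cerebellum 0 of 49, with 2 (4.55%). DESeq2 called 0 in each region. Over the 3 regions together limma called 0 of 64 members and 0 of all 11133 genes. At an unadjusted p below 0.05 there were 0 members (3.57%). The genotype difference itself was compared between regions, and 0 of 64 members and 0 of all 11133 genes passed an FDR of 0.05. The members at an unadjusted p below 0.05 were 2 (3.92%), Kcnh4 and Kcnn2. The lowest FDR of any member within a region was 0.981.

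The genotype differences were small next to those between regions. Within single regions, those that did not involve Kcne2 or Kcnj13, the genes that varied with choroid plexus markers, were under 0.5 on the log2 scale, and the median standard error was 0.15 to 0.16. Over the 3 regions together the largest was 0.68 ± 0.42, in Kcnh4, which did not pass. Median differences of the tested members, CD minus WT, were −0.02 in hippocampus, −0.01 in cortex and 0.03 in cerebellum, against −0.0057, −0.0046 and −0.0018 over all genes.

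The members with the lowest unadjusted p are given as values, none of which passed the correction. In cerebellum Kcng4 had 34.6 to 43.8 cpm in 4 WT and 48.8 to 53.0 cpm in 3 CD libraries, without overlap (0.38 ± 0.12). Kcnn2 had 14.3 to 16.2 cpm in WT and 10.4 to 13.4 cpm in CD cerebella (−0.37 ± 0.16). In hippocampus Kcnk3 had 57.1, 59.4 and 70.1 cpm in WT and 66.6, 77.0, 80.8 and 93.0 cpm in CD, which overlapped (0.35 ± 0.13). Kcnq5 had 50.6 to 55.1 cpm in WT and 42.6 to 46.3 cpm in CD (−0.23 ± 0.10).

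In cortex Kcnt1 had 23.3 to 23.9 cpm in WT and 15.5 to 22.6 cpm in CD (−0.32 ± 0.15), and Kcnip1 had 156 to 173 cpm in WT and 126 to 145 cpm in CD (−0.24 ± 0.10). Kcnd1 had 16.5 to 21.8 cpm in WT and 11.6 to 18.6 cpm in CD (−0.42 ± 0.17). Astrocytic Kcnj10 differed by −0.16 ± 0.13, −0.05 ± 0.12 and −0.09 ± 0.10 in hippocampus, cortex and cerebellum and Kcnma1 by 0.16 ± 0.12, 0.0049 ± 0.16 and 0.03 ± 0.15. Kcnj13 differed by −0.53 ± 1.01 in hippocampus, where its level ran from 2.27 to 94.9 cpm. Without the library labelled CD hippocampus of mouse m118 the hippocampal count remained 0, of 53 tested.

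**Figure D4:**
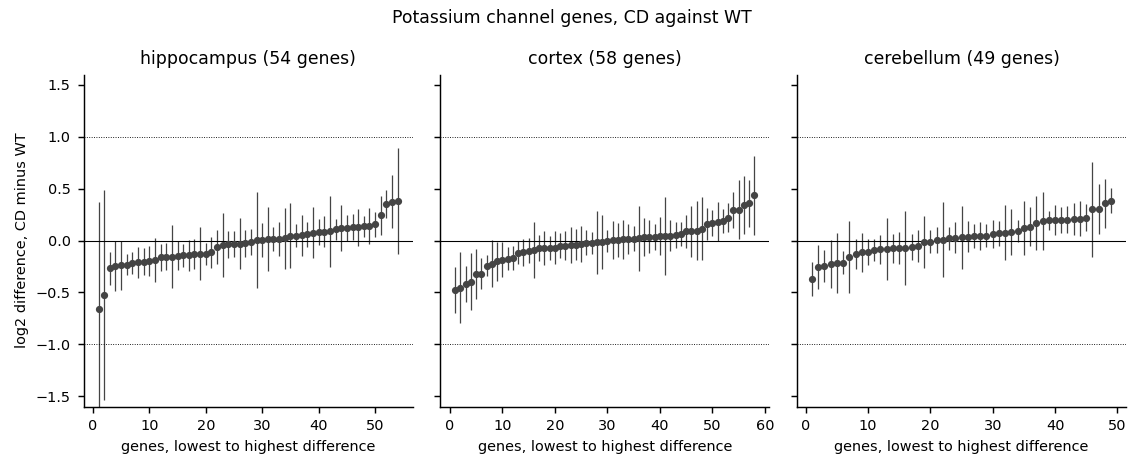
Log2 difference between CD and WT (y axis, CD minus WT) of each tested member, ordered from lowest to highest along the x axis, in each region, with bars for the standard error. The differences stayed within the dotted lines of a 2-fold change, and the longest bars in hippocampus belong to Kcne2 and Kcnj13.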

How the data were processed

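Hippocampus, cortex and cerebellum were dissected and sequenced by CelSeq2 3′ RNA-seq in 22 libraries of 8 mice. The authors deposited raw counts per RefSeq transcript, made by alignment to mm10 with STAR and transcript-end counting with ESAT. Tool versions, strand use and collapse of molecular identifiers are not given in the sources used here, so counting intervals cover counting error only. Sample groups and mouse numbers were taken from the labels, and the study's legend gives 1 library fewer per group without naming it, so all were used. Of 85964 transcripts 69280 were matched to symbols by RefSeq identifier without version. Unmatched ones carried 18.6% of counts and were left out. For each gene the transcript with most counts over the 22 libraries was kept.

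Genes with 5 cpm in at least 2 libraries were kept, scaled by TMM and tested with edgeR 4.0.16 (quasi-likelihood test, R 4.3.3), over 6 group means for regions and within each region for genotype, each region's filter being applied to its own libraries. Genotype over 3 regions used limma 3.58.1 (voom, mouse as random block). Calls needed an FDR by Benjamini-Hochberg below 0.01 with a fold above 2 or below 0.5, or an FDR below 0.05 in the interaction. P-values were adjusted over all genes tested. The biological coefficient of variation was 15.5%. Regions are paired by mouse number in the labels. Deviations of same-mouse libraries correlated by 0.08, 0.05 and −0.0037 on average. Alternatives were DESeq2 1.42.0, other filters and scalings, summed transcripts, each genotype alone, the mouse block and leaving out each library. The fits were tested on simulated counts.

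Described by rule were the 10 members with the largest differences in each direction per pair of regions, the 5 with the lowest p per genotype comparison, the highest of each family, and a fixed list with Kcnj10, Kcnj16, Kcnj8, Kcnj13 and Kcnma1. Some members are not reported here. Others were named after their values were seen. Members, families, partners and marker lists were chosen with earlier results of these data known. The labels do not say whether libraries of a group come from separate litters, so p-values measure the spread between these mice.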

Additional observations from a re-analysis of the deposited data

Results flagged for a closer look

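For 43 members named by rule, the libraries of each group of 4 were searched for a value far from the other 3, by Dixon's ratio of the gap to the range at its 95% critical value. Chance flags about 1 group in 20. Of 172 groups 12 had such a library.

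In the CD hippocampi 5 members did, and for 4 of them the library was that of mouse m118. That library had the lowest total of the hippocampi, at 4021610 counts. Its Tulp4 excess, on 16 counts, lay with the WT hippocampi, but its values of these 4 members lay above every WT hippocampus. There Kcng4 had 4.03 cpm (others 1.62 to 1.98, WT 1.54 to 2.25) and Kcnh4 had 4.78 cpm (2.94 to 3.13, WT 1.88 to 2.08). Kcnh7 had 7.05 cpm (2.68 to 3.09, WT 1.43 to 5.54) and Kcnj3 had 75.0 cpm (56.4 to 58.0, WT 53.7 to 61.1). In the remaining case Kcnu1 had 6.08 cpm in mouse m242 (4.03 to 4.26).

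In the WT cerebella Kcnip2 had 14.7 cpm in mouse m244 (others 8.92 to 9.43) and Kcnmb4 had 70.7 cpm in the same library (86.8 to 87.1). Kcnf1 had 0.605 cpm in mouse m162 (0.169 to 0.185), which rests on at most 4 counts, and Kcnj3 had 62.0 cpm in mouse m240 (69.5 to 70.6). In the WT cortices Kcnh4 had 55.1 cpm (32.5 to 36) and Kcnk12 had 1.59 cpm (2.52 to 2.62) in mouse m244. In the CD cortices Kcna1 had 316 cpm in mouse m190 (337 to 338).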

How the results depend on the processing

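The number of members past the thresholds between hippocampus and cortex, hippocampus and cerebellum, and cortex and cerebellum was 19, 38 and 38. With mice as a block (paired fit) it was 18, 38 and 39, and with DESeq2 19, 38 and 39. It was 17 to 20, 38 to 40 and 37 to 40 when each library was left out in turn. The only alternative that moved these totals by more than 1.5 times, chosen after the data were examined, kept genes with 5 cpm in 2 libraries of every region, and gave 7, 19 and 19 of 42 members (16.7%, 45.2% and 45.2%, against 29.7%, 59.4% and 59.4% of 64). This filter leaves out members that are low in a region. It also took the members higher in hippocampus or cortex than in cerebellum from 25 and 24 to 10 and 10. The 3 members higher in hippocampus than cortex became 1 in WT libraries alone, 1 with a mean of 5 cpm, 1 without 3 hippocampal libraries and 0 with 5 cpm in every region. In WT libraries alone the counts were 14, 37 and 36.

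Kcnj6, higher in hippocampus than cortex by 1.38, was under a threshold in WT libraries alone (0.96, FDR 0.129), when its transcripts were summed (0.82, FDR 0.00065) and without 3 hippocampal libraries (0.80, FDR 0.069), and Kcnh7 in WT libraries alone (−1.86, FDR 0.0166). The cause was not tested. Kcne2 ran from 2.47 to 4.82 above cortex when each library was left out, lowest without WT m244, the library highest in choroid plexus markers. Genotype counts were 0 under every alternative run. With 3 or 4 libraries per group, changes under 2-fold were not called by rule. The 27 members that did not reach 5 cpm in at least 2 of the 22 libraries were not tested. Within regions the filter left 54, 58 and 49 members for genotype in hippocampus, cortex and cerebellum.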
